A study of Mus musculus with 6 samples.

Results

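The subunits of oxidative phosphorylation were examined in dental pulp of the mouse mandibular first molar. They were taken as the genes whose symbols begin, in a fixed pattern, with Nduf, Sdh, Uqcr, Cox4 to Cox8 or Atp5, together with the protein-coding genes of mitochondrial DNA. The pattern found 95 genes of the 27506 in the count table, 82 encoded in the nucleus and 13 encoded by mitochondrial DNA. It uses names only, so it takes in Atp5s, a factor linked to ATP synthase, and Cox6c2, which the annotation lists as a processed pseudogene. It places Ndufa4 with complex I, although that protein is now counted with complex IV, and it misses a few subunits such as Ndufab1. RNA-seq libraries came from 3 Ror2fl/fl control samples and 3 Osr2-Cre;Ror2fl/fl mutant samples, all C57BL/6, with pulp taken at PN3.5 (postnatal day 3.5). Both groups carry floxed Ror2, which encodes a receptor for non-canonical Wnt ligands, and the mutants also carry Osr2-Cre, whose recombination spares tooth epithelium and covers mesenchymal cells of the tooth and the bone around it. The comparison addresses what changes in the pulp when the mesenchyme loses this receptor. Nothing in the labels says which libraries came from separate animals, so p-values measure the spread between these samples. The identifier series in the sample names differ between the groups, and a batch tied to them cannot be told apart from the genotype. The names also carry letter codes that are not explained, WW for control 1, OW for controls 2 and 3 and OR for the mutants, so the controls do not share a code.

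Oxidative phosphorylation takes place in the inner mitochondrial membrane. Complex I oxidises NADH and complex II, which is also the succinate dehydrogenase of the TCA cycle, oxidises succinate. Their electrons pass through complex III and cytochrome c to complex IV, which reduces oxygen, and the proton gradient built along the way drives complex V, the ATP synthase. Complexes I, III, IV and V are built from subunits of both genomes, whereas complex II is encoded wholly in the nucleus. Mitochondrial genes are transcribed as long precursors that are then cut into separate RNAs, and mt-Atp8 with mt-Atp6, and mt-Nd4l with mt-Nd4, stay joined in shared mRNAs.

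Both of these joined pairs overlap in sequence, and their upstream genes are shown because they were the mitochondrial members that were higher in mutant libraries, while mt-Nd4, downstream in its pair, was lower. Positions are on mm10 and sequences are from the GENCODE M21 transcripts. mt-Atp8 lies at chrM:7766-7969, plus strand. Capitals mark its last 43 bases, which are also the first 43 bases of mt-Atp6.
mt-Atp8: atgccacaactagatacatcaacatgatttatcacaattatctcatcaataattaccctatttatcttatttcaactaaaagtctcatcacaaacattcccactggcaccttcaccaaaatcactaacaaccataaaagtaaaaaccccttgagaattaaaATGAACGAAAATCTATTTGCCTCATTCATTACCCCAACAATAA
mt-Nd4l lies at chrM:9877-10173, plus strand. Capitals mark its last 7 bases, which are also the first 7 of mt-Nd4.
mt-Nd4l: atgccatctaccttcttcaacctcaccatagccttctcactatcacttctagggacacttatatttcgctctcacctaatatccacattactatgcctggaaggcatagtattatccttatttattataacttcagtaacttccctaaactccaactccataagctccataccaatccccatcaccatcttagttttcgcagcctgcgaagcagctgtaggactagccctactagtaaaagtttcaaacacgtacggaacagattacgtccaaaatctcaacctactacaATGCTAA
Many nuclear subunit genes have near-identical copies elsewhere in the genome. The coding sequence of Cox7c (chr13:86044816-86046904, minus strand, joined over its exons) is shown with the matching stretch of the pseudogene Gm10012 (chr17:25901856-25902227, plus strand), because the Cox7c call was lost when the counts of its copies were added. Capitals mark the 2 bases of 192 at which Gm10012 differs from Cox7c. The pseudogene Gm12338 (chr11:75599763-75599954, minus strand) has 0 mismatches over the same 192 bases.
Cox7c: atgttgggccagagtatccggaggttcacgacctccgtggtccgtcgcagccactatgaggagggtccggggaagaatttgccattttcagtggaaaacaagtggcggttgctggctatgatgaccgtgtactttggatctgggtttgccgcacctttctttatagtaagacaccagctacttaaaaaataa
Gm10012: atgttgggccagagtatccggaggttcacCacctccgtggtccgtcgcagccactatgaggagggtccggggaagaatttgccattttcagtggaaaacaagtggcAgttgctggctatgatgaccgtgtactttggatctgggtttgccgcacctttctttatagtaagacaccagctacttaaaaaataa

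The libraries held 56134770 to 62628940 counts each. Values below are CPM (counts per 1000000 of the TMM-scaled library total), unless a share of counts or a level per kilobase is named. In the edgeR quasi-likelihood test across 19330 genes, 3906 genes (20.2%) were called at an adjusted p under 0.05, 2003 (10.4%) higher and 1903 (9.84%) lower in mutant libraries, and 38.3% had an unadjusted p under 0.05. These shares are the background for every count of members. Ror2 itself was at 38.2, 36.2 and 36.7 CPM in the controls and 27.9, 28.1 and 26.3 CPM in the mutants (log2 fold change -0.43, SE 0.08, adjusted p = 0.0134). The groups did not overlap, and Ror2 RNA remained in all mutant libraries. The enamel matrix genes Amelx, Ambn and Enam, products of dental epithelium, took 17.3 to 18.9% of control counts and 18.6 to 23.7% of mutant counts in these pulp samples. In such bulk tissue, fewer cells of a type and less RNA per cell cannot be told apart.

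The members were counted by genome, and no test compared the genomes. Of the 81 nuclear members that passed the filter on low counts, 34 were higher and 2 lower in mutant libraries, and 45 did not pass the test. Their log2 fold changes were above 0 in 69 and below 0 in 12, with a median of 0.30, beside a median of 0.01 over all genes tested. All 3 mutant libraries lay above all 3 control libraries for 44 nuclear members and below them for 4, where 22.6% and 22.1% of all genes tested did so. The filter removed Cox8b, so these counts cover 81 of the 82. Of the 13 mitochondrial members, all tested, 2 were higher and 1 was lower, with a median log2 fold change of 0.04. With an offset for GC content the medians were 0.31 for the nuclear and 0.48 for the mitochondrial members, so their order turned. Together the nuclear members took 0.593, 0.472 and 0.521% of the counts in control libraries and 0.581, 0.695 and 0.649% in mutant libraries. Mutant library 1 lay within the control range on that share, and mutant libraries 2 and 3 lay above it. On the TMM scale their sums did not overlap, at 5741, 5003 and 4993 CPM in the controls and 6149, 6759 and 6415 CPM in the mutants. The mitochondrial members took 2.76, 2.36 and 2.57% of the counts in control libraries and 2.61, 2.73 and 2.24% in mutant libraries, and the groups overlapped.

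**Figure D1:**
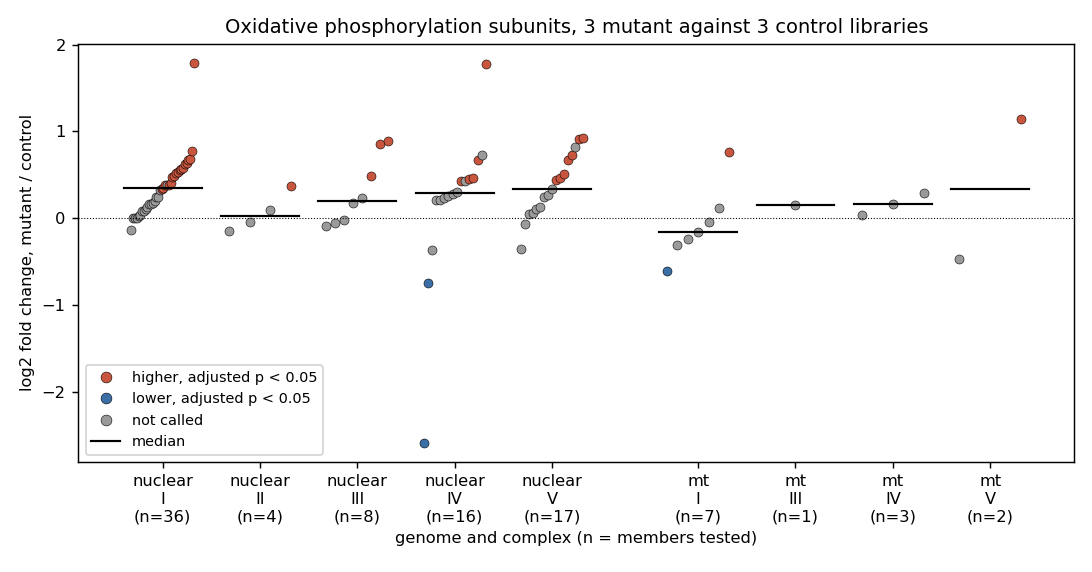
Log2 fold change (mutant over control) of each tested member, by genome and complex; each point is a gene, the bars are medians, and colour gives the call at an adjusted p under 0.05. Most points of nuclear complexes I, III, IV and V lie above 0, with medians from 0.20 to 0.34, though each also has points below it. Nuclear complex II has 2 points above and 2 below 0, mitochondrial complex I has 2 above and 5 below, and mitochondrial complex V has 1 on each side.

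Complex I had the most nuclear members called. Of its 36 nuclear members 18 were higher and 0 lower in edgeR's test, with a median log2 fold change of 0.34. At an unadjusted p under 0.05 the lower count was also 0, as it was with DESeq2 and with limma voom. The 7 core subunits, which carry the flavin and the iron-sulfur clusters, had 2 higher, Ndufs7 and Ndufs8. The 29 members listed as accessory, which surround that core, had 16 higher. Ndufa2, an accessory subunit (chr18:36742332-36744557, minus strand), was at 49.3, 43.5 and 44.5 CPM in the controls and 73.9, 81.6 and 80.1 CPM in the mutants. All mutant libraries lay above all control libraries, with a log2 fold change of 0.78 (SE 0.09, adjusted p = 0.00183). Ndufb4, the other accessory subunit with the smallest p (chr16:37647170-37654453, minus strand), was at 2.89, 2.80 and 2.76 CPM in the controls and 8.20, 11.3 and 9.67 CPM in the mutants. That was a log2 fold change of 1.79 (SE 0.16, adjusted p = 0.000378), and it did not outlast the summing of its copy described further on. The other 16 called members had log2 fold changes from 0.34 for Ndufv3 to 0.68 for Ndufa11. Ndufs1, the largest core subunit, was at 71.9, 68.0 and 65.2 CPM in the controls and 58.8, 62.2 and 65.3 CPM in the mutants, and the groups overlapped (log2 fold change -0.14, SE 0.09, adjusted p = 0.278).

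Complex II, built from nuclear products alone, had 1 of 4 members called. Sdhb, the iron-sulfur subunit (chr4:140961203-140979193, plus strand), was at 105, 89.3 and 86.9 CPM in the controls and 116, 123 and 125 CPM in the mutants. All mutant libraries lay above the controls (log2 fold change 0.37, SE 0.11, adjusted p = 0.0420), but the call held in only 10 of 21 alternative analyses. Sdha, the flavoprotein that oxidises succinate, was at 117, 129 and 124 CPM in the controls and 112, 107 and 113 CPM in the mutants. Its mutant values all lay below its control values, without passing the test (log2 fold change -0.15, SE 0.09, adjusted p = 0.251). The membrane anchors Sdhc and Sdhd overlapped between groups, with log2 fold changes of -0.05 (SE 0.09) and 0.09 (SE 0.12). The median of the complex was 0.02.

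In complex III, which passes electrons from ubiquinol to cytochrome c, 3 of 8 nuclear members were higher and 0 lower, with a median log2 fold change of 0.20. The lower count was 0 as well at an unadjusted p under 0.05, with DESeq2 and with limma voom. The 3 were the small subunits Uqcrh, Uqcr10 and Uqcrq. Uqcrh, the hinge protein (chr4:116066965-116075071, minus strand), was at 82.6, 72.5 and 77.6 CPM in the controls and 121, 166 and 146 CPM in the mutants. The mutant values were all higher and more spread than the control values (log2 fold change 0.89, SE 0.13, adjusted p = 0.00472). Uqcr10 (chr11:4701973-4704342, minus strand) was at 41.3, 34.0 and 32.7 CPM in the controls and 58.0, 74.0 and 64.1 CPM in the mutants (log2 fold change 0.86, SE 0.13, adjusted p = 0.00526). Uqcrc1 and Uqcrc2, the core proteins, and Uqcrfs1, the Rieske iron-sulfur protein, were not called, with log2 fold changes of 0.24, -0.02 and -0.09.

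In complex IV, cytochrome c oxidase, 5 of 16 tested nuclear members were higher and 2 lower, with a median log2 fold change of 0.29. Cox6b1, the widely expressed form of subunit 6B (chr7:30616861-30626151, minus strand), was at 76.7, 66.8 and 65.3 CPM in the controls and 106, 114 and 111 CPM in the mutants. Its groups stood well apart (log2 fold change 0.67, SE 0.10, adjusted p = 0.00464). Cox7c was at 14.0, 13.1 and 13.1 CPM in the controls and 41.2, 49.1 and 47.2 CPM in the mutants (log2 fold change 1.78, SE 0.10, adjusted p = 4.75e-05), and this too depended on its copies. Cox6c2, the second row annotated for subunit 6C, was at 15.9, 13.6 and 12.8 CPM in the controls and 8.06, 9.40 and 7.79 CPM in the mutants. It was lower on its own row (log2 fold change -0.74, SE 0.13, adjusted p = 0.0101), while Cox6c, which shares 71 stretches of 75 bases with it, had a log2 fold change of 0.26 (SE 0.13, adjusted p = 0.195).

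Several complex IV subunits have a widely expressed and a tissue-restricted form. Per kilobase of exon, on the own rows, the widely expressed form had the higher level in each family given here. Cox6a1 was at 111 CPM per kb in control and 151 in mutant libraries, and Cox6a2, the heart and skeletal muscle form, at 0.367 and 0.0587. Cox7a2 was at 49.6 and 66.7 CPM per kb and the muscle form Cox7a1 at 0.823 and 0.638. Cox8a was at 167 and 196 CPM per kb and the muscle form Cox8b at 0.211 and 0.0642, below the filter. Cox4i1 was at 113 and 153 CPM per kb, Cox4i2, known from lung, at 21.9 and 25.2, Cox6b1 at 98.3 and 156, and the testis form Cox6b2 at 2.50 and 4.14. On differences, Cox6a1 and Cox7a2 were called higher (log2 fold changes 0.45 and 0.43, edgeR adjusted p = 0.0159 and 0.0275). Each call was lost in 6 of 21 alternative analyses, for Cox6a1 also with the GC offset. Over the alternatives the log2 fold changes went down to 0.11 for Cox6a1 and 0.26 for Cox7a2. Cox4i1 (0.43, adjusted p = 0.0521) and Cox6b2 (0.73, adjusted p = 0.0503) missed the threshold with no overlap between groups. Cox4i2, Cox8a, Cox7b and Cox7a2l, a relative of subunit 7A known from supercomplexes, had log2 fold changes from 0.21 to 0.30 and were not called.

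Cox6a2 was the member with the most negative log2 fold change. Its row held 17, 15 and 14 counts in control and 2, 3 and 2 in mutant libraries (log2 fold change -2.58, SE 0.44, adjusted p = 0.00847), and at so few counts the size is loose. The skeletal muscle markers moved with it: 7 of 7 tested were lower by edgeR and DESeq2 (2 by limma voom), their summed level was 10.8 to 37.4 CPM in the controls and 2.84 to 3.89 CPM in the mutants, and their part in the Cox6a2 result was not tested. Cox7a1 was at 29, 29 and 23 counts against 21, 22 and 17 (log2 fold change -0.36, SE 0.31, adjusted p = 0.415).

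In complex V, the ATP synthase, 7 of 17 nuclear members were higher and 0 lower, with a median log2 fold change of 0.33. The lower count was 1 (Atp5s) at an unadjusted p under 0.05 and 0 with DESeq2 or limma voom. Calls fell in each structural part: 2 of 5 in the F1 head and its rotating central stalk, 2 of 4 in the peripheral stalk, 1 of 3 among the subunit c genes and 2 of 4 in the rest of the membrane part. Atp5k, subunit e of the membrane part (chr5:108433244-108434448, minus strand), was at 31.6, 26.5 and 26.1 CPM in the controls and 47.7, 57.9 and 53.1 CPM in the mutants. The groups were well separated (log2 fold change 0.92, SE 0.12, adjusted p = 0.00240). Atp5l, subunit g, was at 26.5, 22.6 and 21.2 CPM in the controls and 41.2, 52.9 and 39.1 CPM in the mutants (log2 fold change 0.92, SE 0.14, adjusted p = 0.00560). This call was lost when the genes sharing sequence with Atp5l were added. They include Ccnd3, another expressed gene and not a copy, at a mean of 58.5 CPM in control and 60.5 CPM in mutant libraries. In the head, the central stalk subunits Atp5d and Atp5e rose (log2 fold changes 0.66 and 0.73, edgeR adjusted p = 0.00711 and 0.0141), whereas Atp5a1 and Atp5b, the alpha and beta subunits of the catalytic ring, were at 0.05 (SE 0.11) and 0.11 (SE 0.11) and were not called. That the central stalk and the catalytic ring differed was not tested.

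Subunit c, which forms the rotating ring, is made from several genes with the same mature product. On the own rows Atp5g3 had the highest level per kilobase, 51.4 CPM per kb in control and 70.5 in mutant libraries, followed by Atp5g1 at 6.54 and 6.27 and Atp5g2 at 0.570 and 0.999. For Atp5g2 that place depends on whether the counts of its pseudogenes are added, since its own row held 0.890 to 1.94% of the sum with them. Which of the copies those reads came from was not tested. For Atp5g1 the own row held 14.7 to 19.2% of the sum, but that sum also adds the reads of other expressed genes. Wdr33 (control mean 45.8 CPM) and Afap1 (32.3 CPM) share 27 stretches each with Atp5g1, and the pseudogene Gm10039 was at 45.6 CPM. The Atp5g1 sum is therefore no measure of how its own reads were divided. Summed, and per kilobase of the member, Atp5g2 was at 52.7 CPM per kb in control and 66.3 in mutant libraries and Atp5g1 at 35.8 and 37.6, while Atp5g3 shares no stretch. Atp5g3 was at 125, 108 and 103 CPM in the controls and 156, 163 and 142 CPM in the mutants (log2 fold change 0.46, SE 0.11, adjusted p = 0.0263). Its call was lost in 5 of 21 alternative analyses. Atp5g1 overlapped between groups (log2 fold change -0.06, SE 0.12), as did Atp5g2 (0.82, SE 0.32, adjusted p = 0.0976), which had 55.3 to 60.8 counts in control and 58.6 to 131 in mutant libraries.

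**Figure D2:**
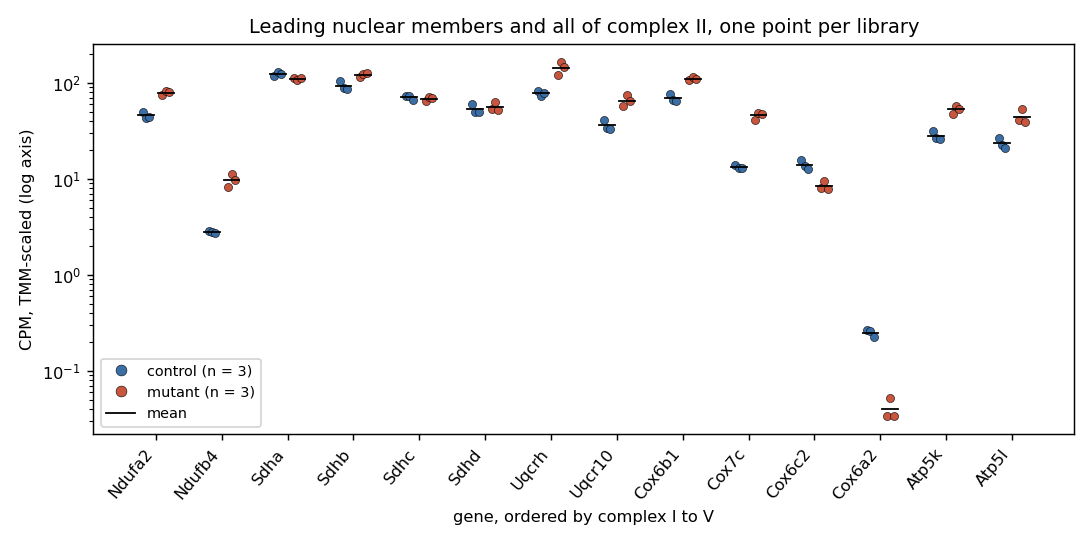
Level in CPM (log axis) of the leading nuclear members and of all complex II members in each of the 3 control (blue) and 3 mutant (red) libraries, with group means as bars. Uqcrh and Atp5k are examples without overlap, at 72.5 to 82.6 against 121 to 166 CPM and at 26.1 to 31.6 against 47.7 to 57.9 CPM, while Sdhc and Sdhd overlap.

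The calls among the mitochondrial members fell in the joined pairs. mt-Atp8, a membrane subunit of ATP synthase, was at 483, 468 and 478 CPM in the controls and 1127, 1089 and 931 CPM in the mutants. Mutant levels were about 2.20-fold higher (log2 fold change 1.14, SE 0.12, adjusted p = 0.00118), and mt-Atp8 shares no stretch of 75 bases with another annotated transcript. Sequence outside annotated transcripts was not searched. The members on either side of it, mt-Co2 and mt-Atp6, have copies at chr1:24614885-24615565 and chr1:24613974-24614651. Whether a copy of mt-Atp8 lies between these was not tested. mt-Atp6, the proton channel translated from the same mRNA, was at 2468, 2239 and 2226 CPM in the controls and 1777, 1872 and 1352 CPM in the mutants. All its mutant values lay below its control values, without passing the test (log2 fold change -0.47, SE 0.16, adjusted p = 0.0676).

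The other joined pair had the same arrangement. mt-Nd4l, the upstream gene and a core subunit of complex I, was at 205, 200.5 and 191 CPM in the controls and 391, 266 and 355 CPM in the mutants (log2 fold change 0.76, SE 0.15, adjusted p = 0.0139). mt-Nd4, the downstream gene (chrM:10167-11544, plus strand), was at 3111, 3105 and 3164 CPM in the controls and 2224, 2168 and 1743 CPM in the mutants. It was lower in every mutant library (log2 fold change -0.61, SE 0.14, adjusted p = 0.0243), but this call was lost in 10 of 21 alternatives, with adjusted p from 2.65e-05 to 0.599 over them.

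Set against its partner, mt-Atp8 had 19.6, 20.9 and 21.5% of the counts of mt-Atp6 in control libraries and 63.4, 58.2 and 68.9% in mutant libraries. mt-Nd4l had 6.60, 6.46 and 6.03% of the counts of mt-Nd4 in control and 17.6, 12.3 and 20.3% in mutant libraries. Neither ratio overlapped between groups. The sum of mt-Atp8 and mt-Atp6 was 2950, 2707 and 2704 CPM in the controls and 2904, 2961 and 2283 CPM in the mutants, and the groups overlapped. The sum of mt-Nd4l and mt-Nd4 was 3316, 3305 and 3354 CPM in the controls and 2616, 2435 and 2098 CPM in the mutants, and all mutant values lay below the control values. How reads over the shared 43 and 7 bases were assigned is not given in the sources used here.

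**Figure D3:**
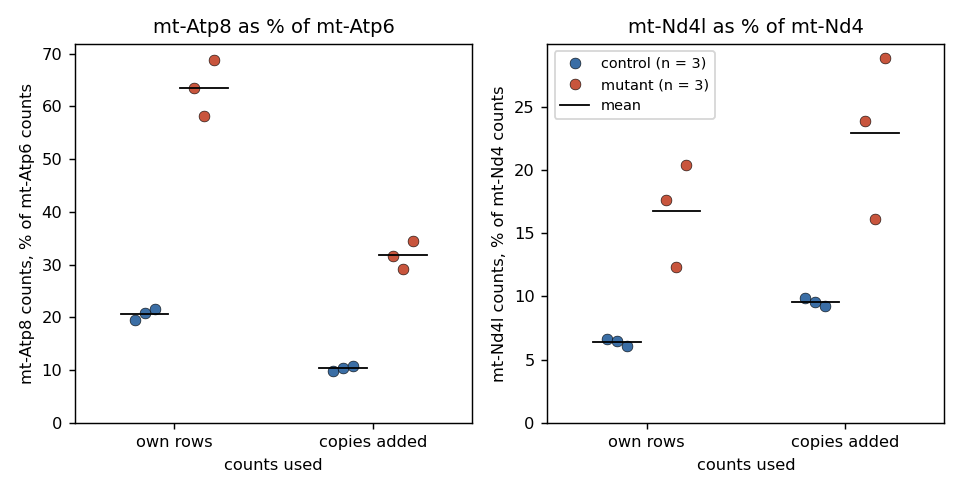
Counts of mt-Atp8 as a percentage of mt-Atp6 (left) and of mt-Nd4l as a percentage of mt-Nd4 (right), per library. Values are from the own rows and with annotated chromosome 1 copies added, which on the left were found for mt-Atp6 alone. Bars are group means. On own rows the mt-Atp8 ratio was 19.6 to 21.5% in control and 58.2 to 68.9% in mutant libraries.

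No other mitochondrial member was called. Among the complex I genes, mt-Nd2 was at 1381, 1217 and 1277 CPM in the controls and 1117, 1040 and 977 CPM in the mutants, with no overlap (log2 fold change -0.31, SE 0.12, adjusted p = 0.109). mt-Nd1, mt-Nd3, mt-Nd5 and mt-Nd6 overlapped, with log2 fold changes of 0.11, -0.16, -0.24 and -0.04. mt-Cytb, the mitochondrial subunit of complex III, was at 3175, 3107 and 3015 CPM in the controls and 3675, 3597 and 3097 CPM in the mutants (log2 fold change 0.16, SE 0.14, adjusted p = 0.429). The catalytic complex IV genes mt-Co1, mt-Co2 and mt-Co3 had log2 fold changes of 0.17, 0.29 and 0.04 and overlapped between groups. Per kilobase and on the own rows, mt-Co1 had the highest control level of the 13, 4394 CPM per kb, and mt-Nd3 the lowest, 413 CPM per kb. With copies added mt-Atp6 was at 6791 and mt-Co1 at 4657 CPM per kb, so that order turned. The complex I genes of mitochondrial DNA together were at 9580 to 10480 CPM in the controls and 7310 to 9370 CPM in the mutants, without overlap, and those of complex IV at 9313 to 10149 and 9470 to 11722 CPM, with overlap.

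**Figure D4:**
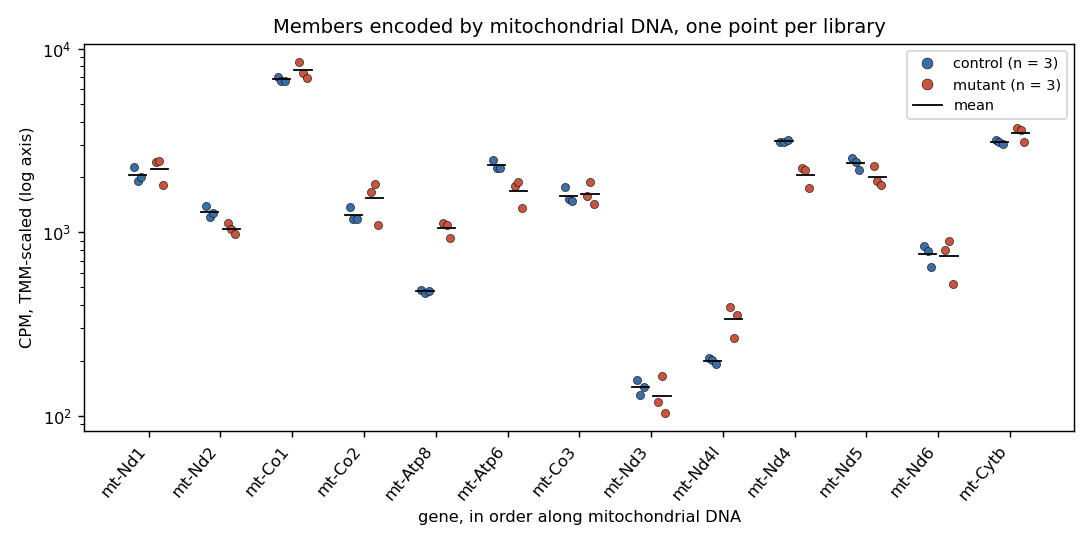
Level in CPM (log axis) of the 13 members encoded by mitochondrial DNA, in order along that DNA, in each of the 3 control (blue) and 3 mutant (red) libraries, with group means as bars. mt-Atp8 and mt-Nd4l stand higher and mt-Nd4 lower in mutant libraries, while the groups overlap at genes such as mt-Nd1 (1906 to 2257 against 1797 to 2443 CPM).

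Base composition moved with the fold changes. Across all genes tested, Spearman's rho of log2 fold change was 0.33 with GC content and -0.26 with exon length. It was 0.29 and -0.15 across the 81 nuclear members, and 0.39 and -0.40 across the 13 mitochondrial members. These are descriptions over genes, which share their libraries. mt-Atp8 and mt-Nd4l, the mitochondrial members called higher, are also the shortest of the 13, at 204 and 297 bases. Fitted with an offset for GC content, 30 nuclear members were higher and 2 lower, where 8.39% of all genes were higher and 6.31% lower. With GC content and length together, 29 were higher and 2 lower, against 8.52% and 6.77%. The mitochondrial members, at 31.9 to 41.1% GC, were more affected by the GC offset: their median went from 0.04 to 0.48, 11 rather than 7 of 13 lay above 0, mt-Atp8 and mt-Nd4l stayed called and mt-Nd4 did not. The part of GC content or length in these results was not tested beyond that.

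Reads that match several genes bear on many members. A gene was called a partner if at least 20 stretches of 75 bases of its transcripts also occur in a member. The 44 nuclear members that share no such stretch at all, of which 43 were tested, had 21 higher and 1 lower, with a median log2 fold change of 0.37. Of the 32 with a partner, 10 were higher and 1 lower on their own rows. After each was summed with its partners and the fit repeated, 4 of these 32 were higher (Ndufb9, Cox5b, Cox6a1 and Atp5o) and 0 lower by edgeR, where 20.2% of all genes were called, 10.3% higher and 9.83% lower. At an unadjusted p under 0.05, 9 were higher and 2 lower, where 38.3% of all genes passed on the own rows. On the same sums DESeq2 called 8 higher and limma voom 9 higher, each with 0 lower. Those tests also called more of all genes on the own rows, 5410 and 6341, where edgeR called 3906. Over all nuclear members the count became 28 higher and 1 lower, and the median 0.24. The 7 calls lost were those of Ndufb4, Cox7c, Atp5l, Atp5j, Ndufa12, Ndufb11 and Cox6c2, and 0 were gained. The sums for Atp5l, Atp5j and Ndufb11 include other expressed genes, named further on.

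Cox7c and Ndufb4 showed this most plainly. The row of Cox7c held 18.9 to 19.3% of the counts of Cox7c and its pseudogenes in control libraries and 57.3 to 61.7% in mutant libraries. Over the same libraries Gm10012, which differs from the Cox7c coding sequence at 2 bases, went from 14.9, 13.4 and 13.6 CPM to 1.11, 1.32 and 0.794 CPM, and Gm12338 from 43.7, 41.9 and 42.4 CPM to 28.3, 35.3 and 28.4 CPM. Summed, the 3 rows were at 72.5, 68.4 and 69.0 CPM in the controls and 70.6, 85.7 and 76.4 CPM in the mutants (log2 fold change 0.15, SE 0.10, adjusted p = 0.297). Ndufb4 held 6.29 to 7.27% of its sum with the pseudogene Ndufb4c in control and 19.7 to 20.5% in mutant libraries, and the sum had a log2 fold change of 0.25 (SE 0.14, adjusted p = 0.231). How the counting divided such reads is not given in the sources used here, and a difference between copies cannot be told apart from a difference in how their reads were divided.

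Direction turned on summing for 8 members. Atp5g1 went from -0.06 to 0.07, Atp5h from 0.12 to -0.05, Cox6c from 0.26 to -0.16 and Cox6c2 from -0.74 to 0.12 on the log2 fold change. Ndufb2 went from 0.20 to -0.25, Ndufb6 from -0.0023 to 0.02, Ndufs5 from 0.01 to -0.25 and Uqcrb from -0.06 to 0.28. Of these only Cox6c2 was called on its own row, and 0 were called by edgeR when summed, where 1 was higher and 2 were lower at an unadjusted p under 0.05 and DESeq2 and limma voom each called 1 higher. Some partners are other expressed genes that overlap or lie near the member rather than pseudogenes: Vps13b for Cox6c, Braf for Ndufb2, Smim27 for Ndufb6 and Gabpa for Atp5j. Rbm10 for Ndufb11, Ccnd3 for Atp5l, and Wdr33 and Afap1 for Atp5g1 are also expressed genes and not pseudogenes. All those sums add another gene's reads, so a lost call or turned direction there cannot be put down to copies. The mitochondrial members mt-Atp6, mt-Co2 and mt-Co3 split about evenly with copies on chromosome 1. mt-Atp8, mt-Cytb, mt-Nd1 and mt-Nd6 have no partner among annotated transcripts. Summed with its copy, mt-Nd4l kept its call (log2 fold change 0.63, SE 0.16, adjusted p = 0.0334), and the mt-Atp8 ratio to the summed mt-Atp6 was 9.77 to 10.7% in control and 29.1 to 34.4% in mutant libraries.

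**Figure D5:**
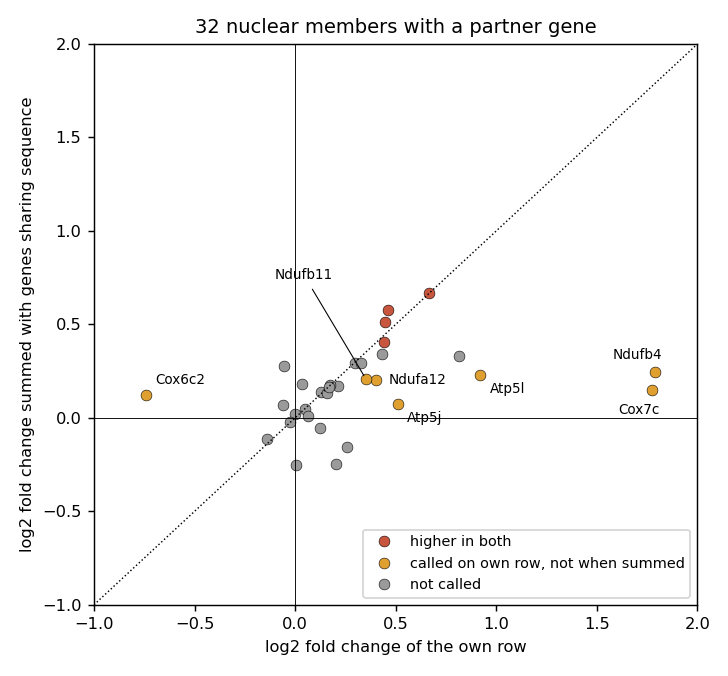
Log2 fold change of each of the 32 nuclear members with a partner on its own row (x axis) and after summing with the partners (y axis); the dotted line marks equality and named points lost their call. Cox7c went from 1.78 to 0.15 and Ndufb4 from 1.79 to 0.25 when summed.

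Promoters were looked up for the nuclear members, since many of them moved together. RefSeq windows (GRCm38.p6, 250 bases before to 50 after the start) matched 65 of the 82 nuclear members. The ETS motif CCGGAAG, bound by factors such as GABPA, occurred on either strand in 16 of the 65 (24.6%), and in 9.93% of the 27025 genes with a window. The NRF1 motif GCGCATGCG occurred in 8 (12.3%, against 1.95%) and the YY1 motif AAGATGGCG in 7 (10.8%, against 1.64%), while CCAAT occurred in 28 (43.1%, against 41.1%). These motifs do not contain each other, and a match is a description of letters only. The ETS motif occurred in members called higher and in members not called (Atp5h, Cox8a, Ndufb6, Ndufs3, Sdhd and Uqcr11). A link between motif and call was not tested. Uqcrh and Atp5e, both higher in mutant libraries, are shown with the ETS motif in capitals, read on the opposite strand, over the upstream bases at chr4:116075072-116075320 and chr2:174464106-174464351, minus strand.
Uqcrh promoter: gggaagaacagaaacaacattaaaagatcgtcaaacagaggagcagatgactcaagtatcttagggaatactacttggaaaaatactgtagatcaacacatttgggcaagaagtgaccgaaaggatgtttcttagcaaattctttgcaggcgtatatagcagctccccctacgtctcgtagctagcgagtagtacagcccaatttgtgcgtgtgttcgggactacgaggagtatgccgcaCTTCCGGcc
Atp5e promoter: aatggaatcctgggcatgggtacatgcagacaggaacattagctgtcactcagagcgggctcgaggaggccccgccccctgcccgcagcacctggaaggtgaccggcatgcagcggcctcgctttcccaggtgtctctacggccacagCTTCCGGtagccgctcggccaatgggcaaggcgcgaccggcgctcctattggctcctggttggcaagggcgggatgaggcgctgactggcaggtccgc

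Other genes of the pathway were counted from lists of assembly factors, regulators and neighbouring routes. Of 45 tested assembly factors, 3 were higher and 2 lower. Pet100, needed to assemble complex IV, was at 8.43, 7.33 and 6.95 CPM in the controls and 11.8, 19.0 and 13.7 CPM in the mutants (log2 fold change 0.97, SE 0.19, adjusted p = 0.0127), and Coa5 fell (-0.37, SE 0.10, adjusted p = 0.0366). Of 20 genes that maintain or express mitochondrial DNA, 1 was higher, the mitochondrial RNA polymerase Polrmt (log2 fold change 0.41, adjusted p = 0.0392), and 1 lower, Lrpprc, which stabilises mitochondrial mRNAs (-0.38, adjusted p = 0.0418). Of 10 regulators of mitochondrial biogenesis 0 were higher by edgeR and 3 lower. At an unadjusted p under 0.05, 2 were higher and 4 lower, and DESeq2 called 1 higher and 3 lower. The 3 were Hif1a (log2 fold change -0.73, adjusted p = 0.0254), Gabpa (-0.54, adjusted p = 0.0329) and Yy1 (-0.48, adjusted p = 0.0397).

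The carriers and the subunits that the name pattern misses had 3 of 15 higher and 1 lower. Cycs, somatic cytochrome c, which links complexes III and IV, was at 26.3, 23.7 and 24.0 CPM in the controls and 10.3, 10.9 and 11.7 CPM in the mutants. It fell while most nuclear subunits had positive values (log2 fold change -1.17, SE 0.10, adjusted p = 0.000434). Cycs was not summed with its copies. Atpif1, the inhibitor of ATP hydrolysis by complex V (log2 fold change 0.63, adjusted p = 0.0118), Ndufab1, a complex I subunit and acyl carrier (0.56, adjusted p = 0.0168), and Coq7 of ubiquinone synthesis (0.49, adjusted p = 0.0214) rose. Of 13 TCA cycle genes 1 rose, Idh3g (0.44, adjusted p = 0.0195), and 1 fell, Idh3a (-0.53, adjusted p = 0.00935), both subunits of isocitrate dehydrogenase. Of 17 glycolysis genes 1 rose, Gpi1 (0.51, adjusted p = 0.0114), and 1 fell, Gapdh (-0.35, adjusted p = 0.0355), and neither was summed with copies.

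Markers of other cells differed between the groups in places, and their part in the counts of members was not tested. Summed levels in control and mutant libraries were 172158 to 192198 and 185671 to 255865 CPM for dental epithelium (0 of 9 called by edgeR, 4 higher at an unadjusted p under 0.05, 3 higher with DESeq2) and 3599 to 9316 and 3253 to 7593 CPM for odontoblasts (0 of 6 by edgeR, DESeq2 and an unadjusted p under 0.05). They were 1223 to 1634 and 1165 to 1429 CPM for dental mesenchyme (1 of 9 higher, Msx2, and 7 of 9 with log2 fold changes below 0, of which Lhx8 and Pax9 were lower at an unadjusted p under 0.05 and with DESeq2, and Pax9 and Pdgfra with limma voom). Erythroid markers were at 784 to 1331 and 245 to 942 CPM, and 7 of 7 had log2 fold changes below 0. Of these, 2 were lower by edgeR and by DESeq2, and 5 by limma voom. Schwann cell markers went from 6.67 to 7.76 CPM to 11.5 to 14.4 CPM (2 of 4 higher). Macrophage markers were at 81.6 to 101 and 68.8 to 86.3 CPM (2 of 6 lower), endothelial markers at 171 to 230.1 and 157 to 215 CPM (0 of 5 by each of these), and the adipocyte markers summed to at most 0.329 CPM.

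Single libraries weighed on the number of calls. Without control library 2 the nuclear members called were 11 and without control library 3 they were 12, against 36 with all libraries, while the calls over all genes went from 3906 to 910 and 872. In those fits 65 and 67 of the 81 nuclear log2 fold changes were above 0, with medians of 0.24 and 0.26. Ndufa2, Uqcrh, Uqcr10, Cox6b1, Atp5k and mt-Atp8 stayed called in all 21 alternatives. Those include fits of summed counts, which left the rows of Ndufa2, Uqcr10, Cox6b1, Atp5k and mt-Atp8 unchanged, since these genes share no stretch. For Uqcrh only the fit that adds genes sharing any stretch changed the row.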

How the data were processed

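Total RNA of dental pulp was sequenced in 3 control and 3 mutant libraries. The authors deposited estimated counts per gene, which per the labels were made with STAR 2.6.1d and Partek on mm10, while the methods name TopHat and counting of single-end reads of 75 cycles over exons. The program's handling of reads that fit several genes, its strand setting and its annotation are not given in the sources used here. Of the values, 47.8% are exactly whole and 64.1% lie within 0.05 of a whole number. The authors also deposited a normalized signal, the count plus 1 times a factor per library, which served only as an alternative. A further 6 columns of the count table belong to other samples and were not used.

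Counts were rounded to whole numbers and fitted with edgeR 4.0.16 (R 4.3.3, TMM, filterByExpr, quasi-likelihood test, Benjamini-Hochberg adjustment over 19330 genes). SE is the log2 fold change divided by the square root of F. The biological coefficient of variation was 18.7%. Alternatives used DESeq2 1.42.0, limma 3.58.1, other scalings, filters and pseudocounts (1 and 0.1), offsets for GC content and length, a replicate block, and leaving out each library. The fit was tested on simulated data. Partners were found as shared 75-base stretches, on either strand, of GENCODE M21 transcripts, with a minimum of 20. Pairs of replicates differed by more than sampling noise (chi-square per gene of 60.6 to 273). The depth of 56134770 to 62628940 counts leaves counting error small except at rows such as Cox6a2.

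The members and lists were chosen with earlier results of these data known. Named were all mitochondrial members, per complex the 2 nuclear members with the smallest p in each direction among those called, the Sdh genes, the isoform families, the members whose direction turned on summing, the 2 genes with the smallest p of each further list, and Ror2. Ndufs1, Uqcrc1, Uqcrc2, Uqcrfs1, Atp5a1, Atp5b, Atp5d, Atp5e, the partner genes, and the other called genes named in lists or counts were added after their values were seen.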

Additional observations from a re-analysis of the deposited data

How the results depend on the processing

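Over all genes the number called, 3906 by edgeR, was 6341 with limma voom and quality weights, 2013 with a replicate block, 1237 with the block and a GC offset, and 872 to 5001 when leaving out each library in turn (872 without control 3, 910 without control 2, 2404 without mutant 1). The nuclear members called, 36 in all, were 21 with the replicate block, 13 with the block and a GC offset, and 11 to 36 without single libraries. After summing with partners, 29 became 18 with the replicate block and 8 to 29 without single libraries (10 without control 2, 8 without control 3). These fits of the summed counts, and those with DESeq2 (35) and limma voom (38), were chosen after seeing the data. The mitochondrial members called, 3 in all, were 5 with DESeq2 and 1 to 4 without single libraries (1 without control 2, 1 without control 3). Fits without a library or with a block hold fewer residual degrees of freedom. Cox6c2 reversed to 0.12 when summed with genes sharing 20 stretches or any stretch. Over all alternatives, the summed ones included, the median nuclear log2 fold change stayed above 0, from 0.18 to 0.37, and 62 to 71 of those tested were above 0. Replicate numbers are shared by the groups, but same-numbered libraries did not deviate together (correlations -0.10, -0.08 and -0.004), so the block pairs numbers only. In no pair did a library correlate best with its own number. Depth limits Cox6a2, Cox7a1 and Cox8b, at 29 counts or fewer per library.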

Other observations

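The mitochondrial ribosomal RNAs, which are not members, varied more between mutant libraries than the coding genes did. mt-Rnr1 was at 291, 261 and 247 CPM in the controls and 291, 889 and 378 CPM in the mutants (log2 fold change 0.96, SE 0.37, edgeR adjusted p = 0.0932), with mutant library 2 far above the others. mt-Rnr2 was at 1088, 860 and 906 CPM in the controls and 467, 1489 and 630 CPM in the mutants (-0.14, SE 0.38, adjusted p = 0.808), again highest in mutant library 2. That library also had the highest share of counts on the nuclear rRNA row CT010467.1, 9.41%, where the other libraries had 1.17 to 6.75%. Gm29216, the chromosome 1 copy of part of mt-Co1, was at 448, 376 and 390 CPM in the controls and 21.0, 627 and 1.33 CPM in the mutants, so its row differed more within the mutant group than between groups, while mt-Co1 itself was at 7019, 6695 and 6654 CPM in the controls and 8501, 7399 and 6952 CPM in the mutants.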
